A study of Homo sapiens with 36 samples.

Results

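The comparison described here asks what 6-thio-dG adds to osimertinib in HCC827 cells after 3 days, and it covers all 11828 gene rows of the authors' deposited table, which holds 4 such comparisons. The libraries titled COM came from HCC827 cells given 6-thio-dG and osimertinib (2 libraries), and they were set against libraries titled TKI from HCC827 cells given osimertinib without 6-thio-dG (2 libraries). Both groups therefore carry the EGFR inhibitor. For contrast, 2 further comparisons of the same table were used: 6-thio-dG (THIO) over an arm headed RNA, read here as the DMSO control, in HCC827, and 6-thio-dG with PLX4720 over PLX4720 in A375, again with 2 libraries in each group by the titles. The header names the osimertinib arm TKI1, and it does not say whether that is the group or 1 library of it. Messenger RNA was selected by poly-T beads from Trizol extracts of 36 libraries in the whole series. HCC827 is an established human lung adenocarcinoma line that depends on an activating deletion in EGFR, so it models 1 tumour and 1 driver mutation, and A375 is a melanoma line with mutant BRAF that PLX4720 inhibits. No source used here gives drug concentrations, and nothing in the labels says that the 2 libraries of a group came from separate cultures, so the p-values may measure technical spread alone.

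Osimertinib binds the mutant EGFR kinase covalently and shuts off the RAS, RAF, MEK and ERK cascade below it. ERK activity is usually read from the genes it switches on within minutes, such as FOS and EGR1, and from the phosphatases and Sprouty proteins that damp it, such as DUSP6 and SPRY4. 6-thio-dG is a thiolated guanine nucleoside that cells convert to a nucleotide, which telomerase can place into telomeric DNA, where it is known to provoke a DNA damage response. Lung cancer cells that persist under EGFR inhibitors are known to divide slowly at low ERK output, and in several models to lean on oxidative metabolism.

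The authors' deposited table lists for each gene a log2 fold change with its raw and adjusted p, and no value per library, so neither the level of a gene nor the spread of single libraries can be shown. A gene is called risen or fallen here at the authors' adjusted p under 0.05. The standard error (SE) given beside a fold change is the one that the fold change and its p-value imply under a two-sided normal test. Of the 11828 genes, 4167 (35.2%) were called in the authors' deposited table, 2052 risen (17.3%) and 2115 fallen (17.9%). The called changes were small: their median size was 0.58 on the log2 scale, with an interquartile range of 0.46 to 0.74, against a median implied SE of 0.17 over all genes. Changes of at least 2-fold were uneven in direction, with 19 risen (0.161%) and 254 fallen (2.15%), 273 in all (2.31%).

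The fold changes of COM over TKI followed the base composition of the genes. Across 11793 genes with a GENCODE match, Spearman's rho between the deposited log2 fold change and the GC content of the merged exons was 0.75. Genes are not independent replicates, so no p is given. With genes in 10 equal classes by GC content, in the lowest class (31.3% to 39.1%) the median log2 fold change was -0.70, with 60.3% fallen and 0.0847% risen. In the highest class (62.3% to 74.5%) the median was 0.43, with 51.0% risen and 0.508% fallen. The medians were higher in each class than in the one below. The same rho was 0.22 for THIO in HCC827 and -0.25 for the combination in A375. The cause of this trend was not tested, and fold changes of single genes are therefore given both as deposited and with the trend on GC content removed by a lowess curve (GC-adjusted). GC adjustment narrowed the interquartile range of all log2 fold changes to 0.38, against 0.72 as deposited. It gave 726 genes called (6.16%), 411 risen (3.49%) and 315 fallen (2.67%). Of these, 215 had also risen and 210 had also fallen as deposited, and 3 that had fallen as deposited rose. The other 193 risen and 105 fallen genes were not called as deposited and became calls only with the adjustment.

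**Figure D1:**
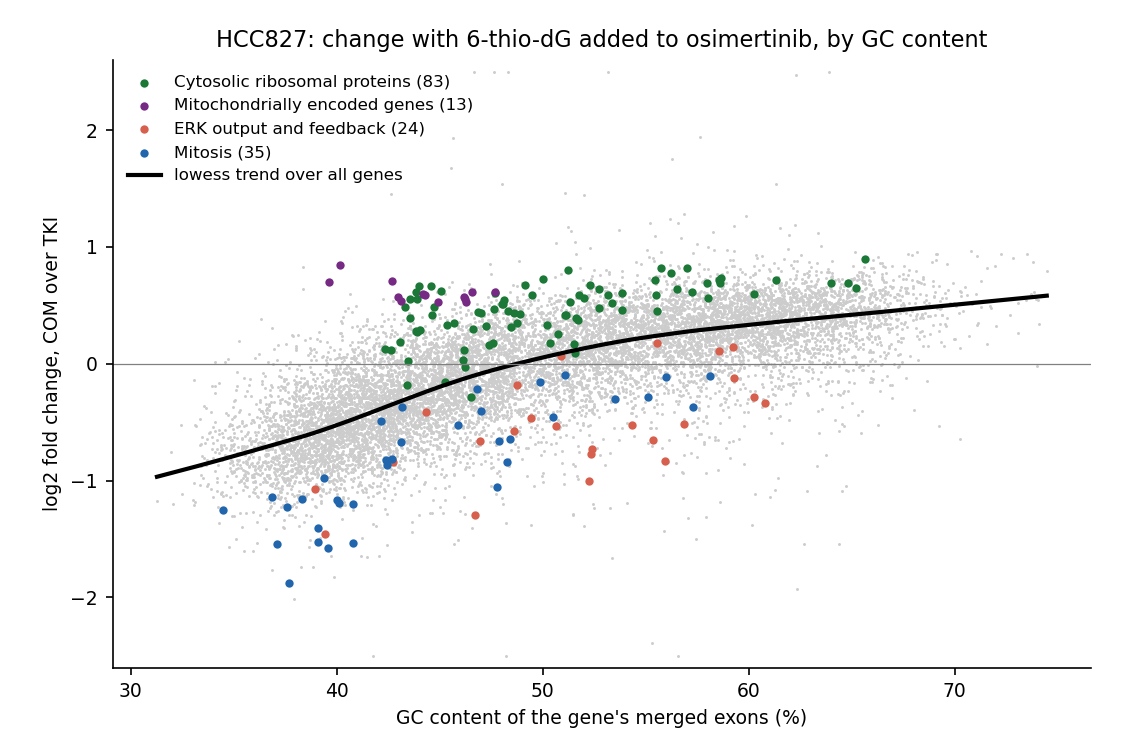
Deposited log2 fold change of COM over TKI in HCC827 (y axis; values beyond 2.5 are drawn at the edge) against the GC content of merged exons in percent (x axis), 1 grey point per gene, with the lowess trend as a black line. Ribosomal protein and mitochondrially encoded genes lie mostly above the line, and ERK output and mitosis genes below it.

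Exonic length went with the fold change as well, also within each of 3 equal groups of genes by GC content. GC content still varies within these groups, so the medians below do not separate length from it fully. Spearman's rho between exonic length and log2 fold change was -0.44 as deposited and -0.29 GC-adjusted. In the lowest of 3 equal groups by GC content, the median log2 fold change was -0.26 in the shortest of 4 equal classes of exonic length and -0.59 in the longest. In the middle group the medians were 0.17 in the shortest class and -0.11 in the longest, and in the highest group 0.46 and 0.16. Since ribosomal and respiratory genes are short, a further adjustment for GC content, exonic length and gene span together is given beside their counts. It gave 520 genes called (4.41%), 283 risen (2.4%) and 237 fallen (2.01%). Of these, 154 risen and 65 fallen genes were not called as deposited.

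**Figure D2:**
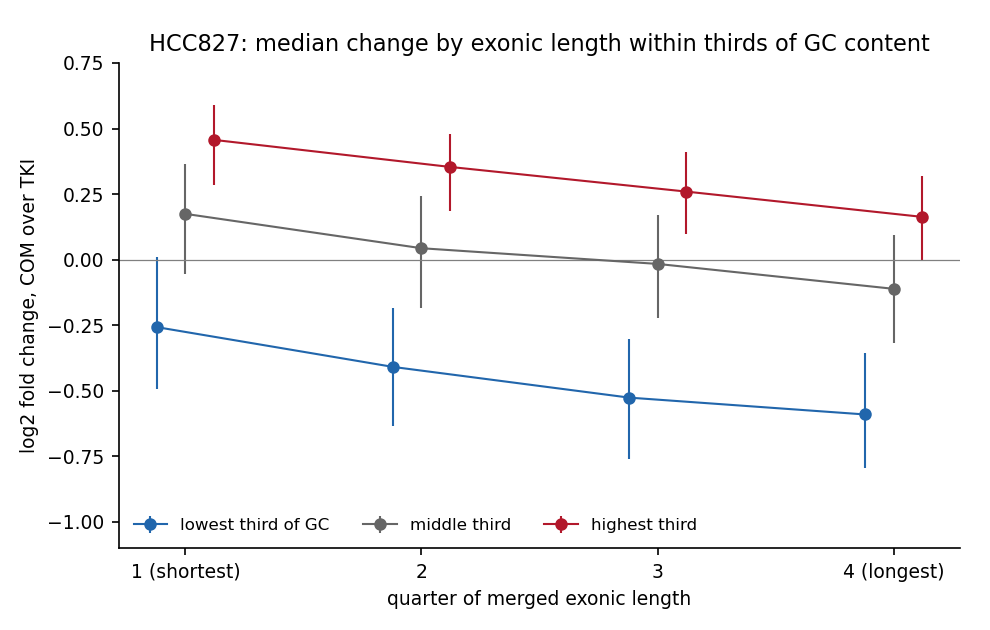
Median deposited log2 fold change of COM over TKI (y axis) by class of exonic length, 1 (shortest) to 4 (longest) (x axis), in 3 equal groups of genes by GC content, with bars from the 25th to the 75th percentile. The median is lower in each longer class of all 3 groups.

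ERK output genes were lower with 6-thio-dG on top of osimertinib. By the authors' deposited table, 14 of 24 measured ERK output and feedback genes fell and 0 rose, against 17.9% and 17.3% of all genes, and their median log2 fold change was -0.53, against -0.0039 over all genes. After GC adjustment 15 had fallen and 0 had risen, at a median of -0.59, and all 24 lay below 0. The GC-adjusted shares of all genes were 2.67% fallen and 3.49% risen. With length and span adjusted too, 13 fell. DUSP6, a phosphatase that inactivates ERK (chromosome 12, 89347232 to 89353271, minus strand, GRCh38 by GENCODE 29), fell by 1.29 ± 0.24 (implied SE) as deposited, with an adjusted p of 4.53e-06, and its GC-adjusted value was -1.19. FOS, a subunit of the AP-1 transcription factor, fell by 0.77 ± 0.13 as deposited and stood at -0.91 GC-adjusted. EGR1, a zinc finger factor induced by ERK, fell by 0.65 ± 0.11 as deposited and stood at -0.88 GC-adjusted. EMP1, a membrane protein, fell by 0.84 ± 0.16 as deposited and stood at -0.50 GC-adjusted, a call that ended at an adjusted p of 0.0576 with length and span adjusted as well.

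Further feedback inhibitors and targets of ERK fell as deposited; those of this paragraph were named after their values were seen. DUSP4 and DUSP5, further nuclear phosphatases of ERK, had deposited log2 fold changes of -0.73 ± 0.14 and -0.83 ± 0.19, and both calls held after GC adjustment, at -0.87 and -1.08. SPRY4, a Sprouty protein that restrains signalling from receptor kinases, was at -1.0 ± 0.30 as deposited and -1.14 GC-adjusted. CCND1, which encodes cyclin D1, was at -0.53 ± 0.12 as deposited and -0.61 GC-adjusted. ETV1, an ETS factor with AT-rich exons (39.4% GC), was the lowest member as deposited at -1.45 ± 0.43, but its GC-adjusted value of -0.89 had an adjusted p of 0.231. The exons of DUSP4, DUSP5, SPRY4 and CCND1 hold 50.6% to 55.9% GC, and adjustment made their values more negative, whereas that of ETV1 became less so.

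Immediate early genes, mostly transcription factors, of which 5 are also ERK output genes (FOS, EGR1, FOSL1, IER3 and MYC), were lower likewise, more clearly so once GC content was accounted for. As deposited, 8 of 24 fell and 1 rose, with a median of -0.23, and after GC adjustment 12 fell and 0 rose, with a median of -0.58. Among all genes 17.9% fell and 17.3% rose as deposited, and 2.67% and 3.49% GC-adjusted. FOSB fell by 0.94 ± 0.14 as deposited and stood at -1.21 GC-adjusted. CCN2, a secreted matrix protein induced by YAP and by SRF, had the smallest p of this list, with a fall of 1.29 ± 0.19 as deposited and a GC-adjusted value of -1.40. Serum response factor (SRF) binds the CArG box (CC, 6 bases of A or T, GG), and the EGR1 promoter is shown because it holds a pair of them, printed in capitals, 105 and 83 bases before the start site. The sequence is from RefSeq, GRCh38.p14, chr5:138465349-138465428, plus strand.

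EGR1: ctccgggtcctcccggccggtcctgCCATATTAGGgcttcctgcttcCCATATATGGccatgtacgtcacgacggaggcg

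A CArG box was found in the 250 bases before the start of 2 of 19 immediate early genes with a RefSeq promoter (10.5%), EGR1 and SRF itself (named here for its motif, outside the rule for named genes), against 89 of 9581 genes of the table with one (0.929%) and 1.14% of 27305 RefSeq promoters; the motif reads the same on both strands. SRF stood at -0.0027 ± 0.14 as deposited, with an adjusted p of 0.99. The box was also found in 4 of 14 contractile and actin-binding genes (28.6%). In that list 8 of 16 rose and 1 fell as deposited, and 0 were called after GC adjustment. Of all genes, 17.3% rose and 17.9% fell as deposited, and 6.16% were called after GC adjustment.

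Some EGFR family genes, ligands and feedback inhibitors fell as deposited, and fewer were called after GC adjustment. Their counts stand against 17.9% of all genes fallen and 17.3% risen as deposited, and 2.67% and 3.49% GC-adjusted. Of 15 measured EGFR family genes, ligands and feedback inhibitors, 7 fell and 0 rose in the authors' deposited table, with a median of -0.37; GC-adjusted, 3 fell and 1 rose, with a median of -0.22. TGFA, the ligand transforming growth factor alpha, fell by 0.80 ± 0.16 as deposited and stood at -0.74 GC-adjusted, with an adjusted p of 0.000177. AREG, the ligand amphiregulin, fell by 0.59 ± 0.17 as deposited; its GC-adjusted value of -0.41 was not called (adjusted p 0.136), whereas adjustment for length and span as well gave -0.66 and a call. EREG, the ligand epiregulin, named after its values were seen, was at -1.54 ± 0.47 as deposited but at -0.80 with an adjusted p of 0.362 once GC content was removed. ADAM10, a sheddase that frees EGFR ligands from the membrane, fell by 1.01 ± 0.18 as deposited and stood at -0.38 GC-adjusted, with an adjusted p of 0.21. EGFR itself fell by 0.37 ± 0.14 as deposited (adjusted p 0.0216), and its GC-adjusted value of -0.31 was not called (adjusted p 0.169).

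The inhibitors of the receptor did not all move the same way. ERRFI1, which encodes MIG6 and binds the EGFR kinase to block it, fell by 0.80 ± 0.14 as deposited and stood at -0.48 GC-adjusted, with an adjusted p of 0.0179. SOCS3, a feedback inhibitor of cytokine signalling, was not called as deposited at -0.30 ± 0.16 and was called at -0.63 with GC content removed. CBLB, a ubiquitin ligase for EGFR, was at 0.19 ± 0.21 as deposited and was called at 0.67 with GC content removed; it and SOCS3 were named after their values were seen. Among 13 other receptor kinases and adaptors through which cells can bypass EGFR, 3 fell as deposited and 6 after GC adjustment, and 0 rose either way. Of all genes, 17.9% fell and 17.3% rose as deposited, and 2.67% and 3.49% did so GC-adjusted. The 3 deposited falls are near the first share and are not a result about the list. MET, the receptor whose amplification is a known route to resistance, fell by 0.84 ± 0.15 as deposited and stood at -0.47 GC-adjusted, a call that ended with length and span adjusted (adjusted p 0.185). IRS1, an adaptor of insulin receptors, fell by 0.51 ± 0.14 as deposited and stood at -0.59 GC-adjusted. EPHA2, an ephrin receptor and an ERK target, was not called as deposited at -0.28 ± 0.12 but stood at -0.62 GC-adjusted with an adjusted p of 4.29e-05. Of 19 YAP and TEAD targets, 6 fell and 1 rose as deposited, and 5 fell and 0 rose after GC adjustment. F3, which encodes tissue factor, fell by 0.83 ± 0.15 as deposited and stood at -0.54 GC-adjusted.

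**Figure D3:**
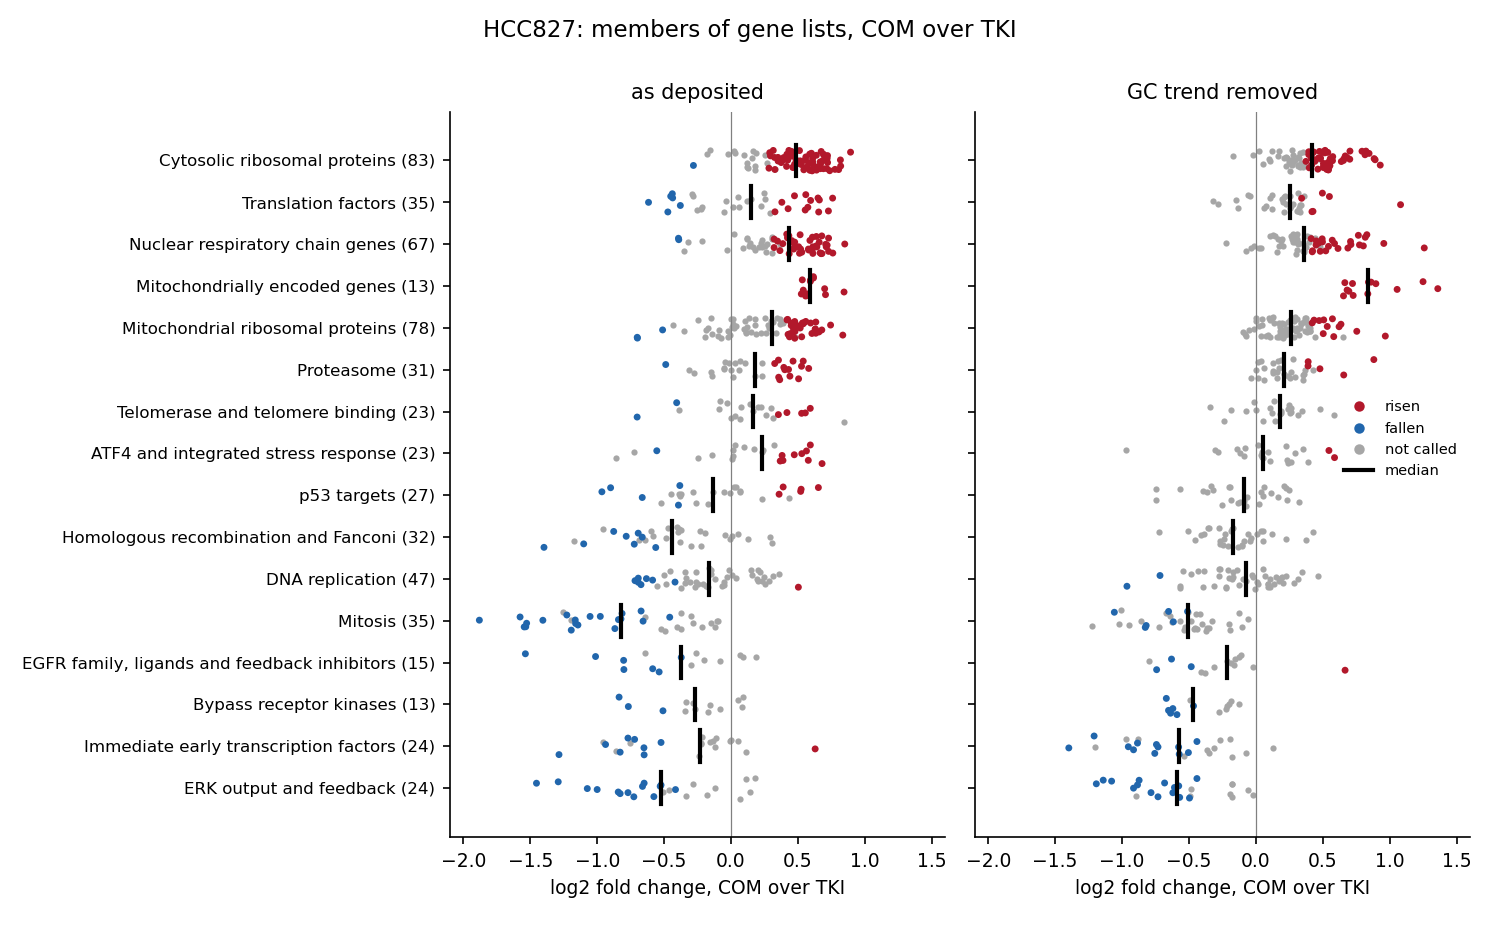
Log2 fold change of COM over TKI (x axis) for the members of 16 gene lists (rows, with the number measured), as deposited on the left and with the GC trend removed on the right. Red points rose, blue points fell, grey points were not called, and black bars are list medians. Ribosomal and respiratory lists lie to the right of 0 and ERK output, immediate early and mitosis lists to the left in both panels.

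Mitosis genes were lower in COM than in TKI libraries. The shares over all genes were 17.9% fallen and 17.3% risen as deposited, and 2.67% and 3.49% GC-adjusted. With length and span adjusted as well they were 2.01% and 2.4%. As deposited, 20 of 35 fell and 0 rose, with a median of -0.82 and all 35 below 0; GC-adjusted, 6 fell and 0 rose, with a median of -0.51, and with length and span adjusted as well 8 fell. The list is AT-rich, with a median GC content of 42.7% against 48.9% over all genes. TOP2A, the topoisomerase that untangles chromosomes (chromosome 17, 40388516 to 40417950, minus strand), fell by 1.41 ± 0.21 as deposited and stood at -0.83 GC-adjusted, with an adjusted p of 0.00309. MKI67, which encodes the proliferation marker Ki-67, fell by 0.84 ± 0.19 as deposited and stood at -0.82 GC-adjusted. TTK, a kinase of the spindle checkpoint, fell by 1.53 ± 0.35 as deposited and stood at -1.06 GC-adjusted. ECT2, which drives cytokinesis, fell by 1.23 ± 0.22 as deposited, but its GC-adjusted value of -0.57 was not called (adjusted p 0.115). HMMR, a spindle protein, had the most negative deposited value of the list, -1.88 ± 0.51, and was not called after GC adjustment at -1.22 (adjusted p 0.143). In bulk libraries fewer cells of a kind and less RNA per cell cannot be told apart, which here touches the share of dividing cells.

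Fewer DNA replication genes were called, and their falls were near the shares of all genes, 17.9% as deposited and 2.67% GC-adjusted. Of 47, 7 fell and 1 rose as deposited, with a median of -0.17, and 2 fell after GC adjustment, with a median of -0.071. RRM2, a subunit of ribonucleotide reductase, fell by 0.69 ± 0.20 as deposited and stood at -0.57 GC-adjusted (adjusted p 0.0545). POLD2, a subunit of DNA polymerase delta, rose by 0.50 ± 0.13 as deposited and stood at 0.19 GC-adjusted (adjusted p 0.473). Of 32 homologous recombination and Fanconi genes 8 fell as deposited and 0 passed after GC adjustment. BRIP1, a helicase partner of BRCA1, had a deposited value of -1.40 ± 0.42 and a GC-adjusted one of -0.73 (adjusted p 0.351).

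Lists for the p53 response, telomeres and guanine nucleoside handling are given next. As deposited 17.3% of all genes rose and 17.9% fell, and after GC adjustment 6.16% were called in either direction. At the sizes of these lists, GC-adjusted counts of 0 or 1 are near that background and are not a result about them. The deposited counts, where near the deposited shares, are not a result about the lists either. Of 27 p53 targets, 5 rose and 5 fell as deposited, and 0 were called after GC adjustment, where the median was -0.092. MDM2, the ligase that degrades p53, fell by 0.96 ± 0.23 as deposited and stood at -0.57 GC-adjusted (adjusted p 0.132). PHLDA3, an AKT inhibitor induced by p53, rose by 0.65 ± 0.14 as deposited and stood at 0.32 GC-adjusted (adjusted p 0.175). Of 23 telomerase and telomere-binding genes, 5 rose and 2 fell as deposited, and 0 were called after GC adjustment, where the median was 0.18. ACD, a protein of the shelterin complex on telomeres, rose by 0.56 ± 0.15 as deposited and stood at 0.18 GC-adjusted (adjusted p 0.578). NHP2, a protein of the telomerase ribonucleoprotein, rose by 0.53 ± 0.15 as deposited and stood at 0.25 GC-adjusted (adjusted p 0.384). Of 18 genes that take up, activate or clear thiopurines and guanine nucleosides, 5 rose and 4 fell as deposited, and 1 fell after GC adjustment: NT5E, the ectonucleotidase CD73, at -0.73 ± 0.15 as deposited and -0.52 GC-adjusted. IMPDH2, which makes guanine nucleotides, rose by 0.46 ± 0.13 as deposited and stood at 0.31 GC-adjusted (adjusted p 0.124). A value that was not called does not show that the gene did not change.

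Most cytosolic ribosomal protein genes rose as deposited. Counts of this paragraph stand against 17.3% of all genes risen and 17.9% fallen as deposited, and 3.49% and 2.67% GC-adjusted. With length and span adjusted as well, 2.4% of all genes rose and 2.01% fell. By the authors' deposited table, 65 of 83 rose and 1 fell, with a median of 0.49; after GC adjustment 49 rose and 0 fell, with a median of 0.42, and with length and span adjusted as well 21 rose, with a median of 0.23. RPL28, a protein of the large subunit, rose by 0.82 ± 0.13 as deposited and stood at 0.57 GC-adjusted. RPS15, a protein of the small subunit, rose by 0.89 ± 0.14 as deposited and stood at 0.46 GC-adjusted, a call that ended with length and span adjusted (adjusted p 0.138). RPS3, another small subunit protein, named after its values were seen, was at 0.67 ± 0.13 as deposited and 0.93 GC-adjusted. Ribosomal protein genes have many near-identical pseudogenes, and how reads that match several copies were counted was not stated. Of 35 translation factors, 13 rose and 6 fell as deposited, with 6 risen and 0 fallen after GC adjustment. EEF2, the elongation factor that moves the ribosome, rose by 0.66 ± 0.13 as deposited and stood at 0.33 GC-adjusted (adjusted p 0.117). EIF3I, an initiation factor subunit, rose by 0.65 ± 0.13 as deposited and stood at 0.55 GC-adjusted. EIF3F, from the same complex and named after its values were seen, was at 0.59 ± 0.13 as deposited and 1.08 GC-adjusted.

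Messengers of ribosomal proteins and elongation factors are known to begin with a C and a run of pyrimidines, the TOP motif, through which mTORC1 sets their translation. The starts of 6 genes that rose as deposited are shown because genes of different lists share this beginning; RPS18, at 0.80 ± 0.14 as deposited and 0.70 GC-adjusted, was chosen after its values were seen. Each has the 15 bases before the start and the first 15 transcribed, from RefSeq, GRCh38.p14, with the first run of C and T from the start site in capitals. RPL28 is at chr19:55385917-55385946, plus strand, RPS18 at chr6:33272060-33272089, plus strand, EEF2 at chr19:3985449-3985478, minus strand, EIF3F at chr11:7987322-7987351, plus strand, COX7C at chr5:86617926-86617955, plus strand, and COX4I1 at chr16:85799680-85799709, plus strand.

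RPL28: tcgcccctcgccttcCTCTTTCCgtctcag
RPS18: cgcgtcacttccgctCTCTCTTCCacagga
EEF2: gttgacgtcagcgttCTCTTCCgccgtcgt
EIF3F: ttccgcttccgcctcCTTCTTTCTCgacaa
COX7C: ccatttcccatctttCTTTTCagtccttgc
COX4I1: cggcgcggccttgctCTCTTCCggtcgcgg

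On the gene's own strand, a start of C followed by at least 4 pyrimidines was found in 43 of 67 ribosomal protein genes with a RefSeq start (64.2%), 9 of 26 translation factors (34.6%) and 8 of 55 nuclear respiratory chain genes (14.5%), against 533 of 9581 genes of the table (5.56%) and 4.04% of 27305 RefSeq starts. Of the 533 genes, 146 rose (27.4%) and 72 fell (13.5%) as deposited, with a median of 0.16, and of the 9048 genes without it 17.1% rose and 18.4% fell, with a median of -0.012. With ribosomal protein genes left out, the medians were 0.10 for 490 genes with the start and -0.013 for 9024 without it as deposited, and 0.083 and 0.00061 GC-adjusted. Among ribosomal protein genes 36 of the 43 with the start and 17 of the 24 without it rose. These shares are a description, since the start was looked for after the ribosomal genes were known to rise.

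All 13 protein-coding genes of the mitochondrial genome rose. Their deposited log2 fold changes ran narrowly, at 0.53 to 0.84 with a median of 0.59, although their GC content, with a median of 44.3%, lies in a class where 19.4% of genes fell and 3.05% rose. GC adjustment therefore raised the median to 0.84 with all 13 still risen, and with length and span adjusted 10 rose, with a median of 0.52. These genes have no introns and are short, so the last value rests on the end of the length and span curves. MT-ND3, a subunit of complex I, rose by 0.84 ± 0.14 as deposited, with an adjusted p of 1.24e-07, and stood at 1.36 GC-adjusted. MT-CO3, a subunit of complex IV, rose by 0.62 ± 0.13 as deposited and stood at 0.72 GC-adjusted. MT-ND6, the only protein encoded on the light strand, rose by 0.71 ± 0.16 as deposited and stood at 1.06 GC-adjusted. The 13 genes share 1 genome and long precursor transcripts, so they are not 13 independent changes.

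Many nuclear genes of the respiratory chain rose as deposited, and fewer were called after adjustment. Among all genes, 17.3% rose and 17.9% fell as deposited, and 3.49% and 2.67% did so GC-adjusted. With length and span adjusted as well, 2.4% rose and 2.01% fell. Of 67 measured nuclear genes of the respiratory chain, 41 rose and 2 fell as deposited, with a median of 0.43, and after GC adjustment 25 rose and 0 fell, with a median of 0.36; with length and span adjusted 11 rose, with a median of 0.20. COX4I1, a subunit of cytochrome c oxidase, rose by 0.64 ± 0.13 as deposited and stood at 0.50 GC-adjusted, and ATP5MC2, part of the rotor of ATP synthase, rose by 0.68 ± 0.14 and stood at 0.42. COX7C, another subunit of cytochrome c oxidase, rose by 0.64 ± 0.13 as deposited and, at 38.4% GC, stood at 1.26 GC-adjusted, among the 8 largest called GC-adjusted rises. NDUFA4 and ATP5F1E, named after their values were seen, had GC-adjusted values of 0.96 and 0.77, against 0.45 ± 0.13 (called) and 0.13 ± 0.13 (not called) as deposited. CYCS, which encodes cytochrome c and is known to signal in apoptosis, was 1 of the 2 that fell as deposited, at -0.39 ± 0.12, and stood at -0.075 GC-adjusted; it too was named after its values were seen. Mitochondrial ribosomal proteins rose in 32 of 78 as deposited and fell in 3, with 12 risen and 0 fallen after GC adjustment but 4 risen with length and span adjusted. MRPS24 rose by 0.74 ± 0.13 as deposited and stood at 0.42 GC-adjusted.

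Of 28 genes of the TCA cycle, which supplies the chain with electrons, 6 rose and 6 fell as deposited, against 17.3% and 17.9% of all genes. After GC adjustment 1 rose and 0 fell, against 3.49% and 2.67%. These counts are near the background and are not a result about the list. Its median was 0.17 as deposited, with 19 genes above 0, and 0.10 GC-adjusted. Succinyl-CoA ligase joins the alpha subunit from SUCLG1 to a GTP-forming beta subunit from SUCLG2 or an ATP-forming one from SUCLA2. SUCLG2 (chromosome 3, 67360460 to 67654614, minus strand) fell by 0.65 ± 0.16 as deposited, with an adjusted p of 0.000672, but its exons hold 39.7% GC and its GC-adjusted value of -0.10 was not called (adjusted p 0.798). SUCLA2 fell by 0.83 ± 0.24 as deposited and stood at -0.32 GC-adjusted (adjusted p 0.496). SUCLG1 was not called either way, at 0.31 ± 0.14 as deposited (adjusted p 0.0688) and 0.34 GC-adjusted (adjusted p 0.128).

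Stress and metabolic lists were mixed, and most of their calls went with GC content. The shares over all genes were 17.3% risen and 17.9% fallen as deposited, and 3.49% and 2.67% GC-adjusted. Of 23 ATF4 and integrated stress response genes, 9 rose and 1 fell as deposited, with 2 risen after GC adjustment; PHGDH, the entry enzyme of serine synthesis, rose by 0.68 ± 0.14 as deposited and stood at 0.39 GC-adjusted (adjusted p 0.0676). Of 31 proteasome genes 13 rose and 1 fell as deposited, with 5 risen after GC adjustment, and PSMB6, a catalytic subunit, rose by 0.58 ± 0.13 as deposited and stood at 0.37 GC-adjusted (adjusted p 0.0756). Of 22 glycolysis genes 9 rose and 2 fell as deposited, and 2 fell after GC adjustment. GAPDH rose by 0.69 ± 0.13 as deposited and stood at 0.36 GC-adjusted (adjusted p 0.067). Of 16 hypoxia genes, 7 fell and 0 rose as deposited, and HIF1A, the oxygen-regulated factor itself, fell by 0.76 ± 0.15 as deposited and stood at -0.15 GC-adjusted (adjusted p 0.643). Of 32 sterol and fatty acid genes, 7 rose and 9 fell as deposited, with 1 risen and 3 fallen after GC adjustment. HMGCS1, an early enzyme of sterol synthesis, fell by 1.14 ± 0.18 as deposited and stood at -0.63 GC-adjusted.

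Among genes of cell defence and death, single members were called after GC adjustment, against 6.16% of all genes. At the sizes of these lists, counts of 1 are near that background and are not a result about them. As deposited, 17.3% of all genes rose and 17.9% fell. GSR, glutathione reductase, fell by 0.57 ± 0.13 as deposited and stood at -0.54 GC-adjusted, 1 of 2 fallen and 2 risen members after adjustment in an NRF2 and ferroptosis list of 28 with 9 risen and 7 fallen as deposited. ACSL4, which makes the lipids that ferroptosis oxidises, fell by 1.01 ± 0.15 as deposited but stood at -0.34 GC-adjusted (adjusted p 0.168). GABARAP, an autophagosome protein, rose by 0.74 ± 0.14 as deposited and stood at 0.66 GC-adjusted, the 1 member called after adjustment of 26 autophagy genes with 7 risen and 5 fallen as deposited. BCL2L2, an inhibitor of apoptosis also called BCL-w, fell by 0.52 ± 0.18 as deposited and stood at -0.66 GC-adjusted, likewise the 1 of 15 BCL2 family genes called after adjustment, against 6 risen and 3 fallen as deposited. BAD, a promoter of apoptosis, rose by 0.76 ± 0.17 as deposited and stood at 0.34 GC-adjusted (adjusted p 0.24).

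Inflammatory genes were lower in part. Their counts stand against 17.3% of all genes risen and 17.9% fallen as deposited, and 3.49% and 2.67% GC-adjusted. Of 23 NF-kB and cytokine genes 3 rose and 6 fell as deposited, with a median of -0.43, and 3 fell and 0 rose after GC adjustment. PTGS2, the inducible cyclooxygenase, fell by 1.76 ± 0.31 as deposited and stood at -1.07 GC-adjusted, with an adjusted p of 0.0159. BIRC3, an inhibitor of apoptosis induced by NF-kB, fell by 1.27 ± 0.27 as deposited and stood at -0.53 GC-adjusted (adjusted p 0.263). SOD2, the mitochondrial superoxide dismutase, fell by 0.71 ± 0.12 as deposited and has no GC-adjusted value because 2 GENCODE genes bear its name. Of 37 interferon-stimulated genes 4 rose and 9 fell as deposited, and 1 was called after GC adjustment: IRF9, a subunit of the interferon-activated factor ISGF3, which rose by 0.88 ± 0.16 as deposited and stood at 0.64. ISG15, a ubiquitin-like interferon target, rose by 0.81 ± 0.17 as deposited and stood at 0.41 GC-adjusted (adjusted p 0.142).

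The table held a larger share of the epithelial marker list than of the 6 other cell type lists. Of 18 epithelial markers 15 were measured, of 18 mesenchymal ones 7, of 18 alveolar and lung secretory ones 7, of 11 squamous and 11 neuroendocrine ones 4 each, of 12 immune ones 1 and of 8 endothelial ones 1. The same gene rows serve all 4 comparisons, those in A375 included, so these shares are not particular to HCC827. Levels are not in the table, so the identity of the line was not checked. Epithelial markers rose in 5 and fell in 2 as deposited, with 1 each way after GC adjustment: KRT7, a keratin of simple epithelia, rose by 0.74 ± 0.12 as deposited and stood at 0.36, and EPCAM, an adhesion protein, fell by 0.46 ± 0.12 and stood at -0.49. Of the 7 mesenchymal markers 2 rose and 0 fell as deposited, with a median of 0.0092. After GC adjustment 1 rose and 0 fell, with a median of -0.050 and 4 of the 7 below 0. The highest of them was VIM, the filament protein vimentin, which rose by 0.80 ± 0.15 as deposited and stood at 0.60 GC-adjusted. Over all genes 17.3% rose and 17.9% fell as deposited, and 3.49% and 2.67% GC-adjusted. MUC5B, a secreted airway mucin (chromosome 11, 1223066 to 1262172, plus strand), fell by 1.09 ± 0.13 as deposited, with an adjusted p of 2.3e-14, and stood at -1.50 GC-adjusted, among the 8 largest called GC-adjusted falls.

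The largest fold changes belonged mostly to joined or unnamed loci. Of 10 called genes that changed at least 4-fold in the authors' deposited table, 7 carry readthrough or unnamed identifiers, and readthrough loci share exons with ordinary genes; such identifiers number 126 in the table. PEDS1-UBE2V1 was listed at 23.9 ± 4.79 and CORO7-PAM16 at 11.6 ± 3.66 on the log2 scale in the authors' deposited table, and the counts behind such sizes are not in it. Of genes with ordinary names, UTP14C, a retrocopy of a gene for ribosome assembly whose reads could be split with its source, had a deposited value of -3.15 ± 0.50, and CDRT4 one of -11.4 ± 1.49. OR51V1, an olfactory receptor gene within the beta-globin region, rose by 1.93 ± 0.23, and PYURF, a small gene that shares its transcript with PIGY, rose by 1.67 ± 0.28. The remaining large falls were of AT-rich genes such as FSBP (37.9% GC), at -2.01 ± 0.61, and KIF14 (38.3% GC), a kinesin of cytokinesis, at -1.74 ± 0.58.

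The response to 6-thio-dG given without osimertinib differed in many genes. COM over TKI and THIO over control share no library as the header was read, so the difference of their log2 fold changes was tested gene by gene with a two-sided z test on the implied SEs, adjusted by Benjamini-Hochberg over all genes. THIO over control had 3455 genes called (29.2%), 1749 risen (14.8%) and 1706 fallen (14.4%). Of 11828 genes, 2636 differed (22.3%), 1282 higher (10.8%) and 1354 lower (11.4%) in COM over TKI than in THIO over control. After GC adjustment 2044 differed (17.3%), 1133 higher (9.61%) and 911 lower (7.72%). Of the 1272 genes called in both comparisons, 950 (74.7%) had the same sign, and 322 had opposite signs, with 177 risen in COM over TKI and fallen in THIO and 145 the other way. After GC adjustment 236 genes were called in both, of which 139 had the same sign. All 13 mitochondrially encoded genes differed, with medians of 0.59 in COM over TKI and -1.09 in THIO over control, where all 13 fell. MT-ND3 differed by 1.87 ± 0.26.

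DNA replication, mitosis and histone genes differed between the treatments in most members. Of 47 DNA replication genes, 7 fell and 1 rose in COM over TKI, whereas 41 rose in THIO over control with a median of 1.10, and the difference passed as lower in 35. RRM2 was at -0.69 ± 0.20 in COM over TKI and at 1.37 ± 0.18 in THIO over control. Mitosis genes had medians of -0.82 in COM over TKI and 0.43 in THIO over control, and 27 of 35 differed. CDC20, an activator of the ligase that ends mitosis, named after its values were seen, was at -0.10 ± 0.16 in COM over TKI and at 1.19 ± 0.17 in THIO over control. Of 18 replication-dependent histone genes, whose messengers normally carry no poly(A) tail and so are largely missed by poly-T selection, 5 rose and 0 fell in COM over TKI as deposited (2 of 16 rose GC-adjusted), while 0 rose and 15 fell in THIO over control, and 15 differed. H1-2, a linker histone, was at 1.03 ± 0.16 in COM over TKI and at -2.54 ± 0.23 in THIO over control. H2AC18 and H2AC19 are near-identical copies with values of 0.92 and 0.91 in COM over TKI, so reads between them could be split either way and they count as 1 change at most.

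**Figure D4:**
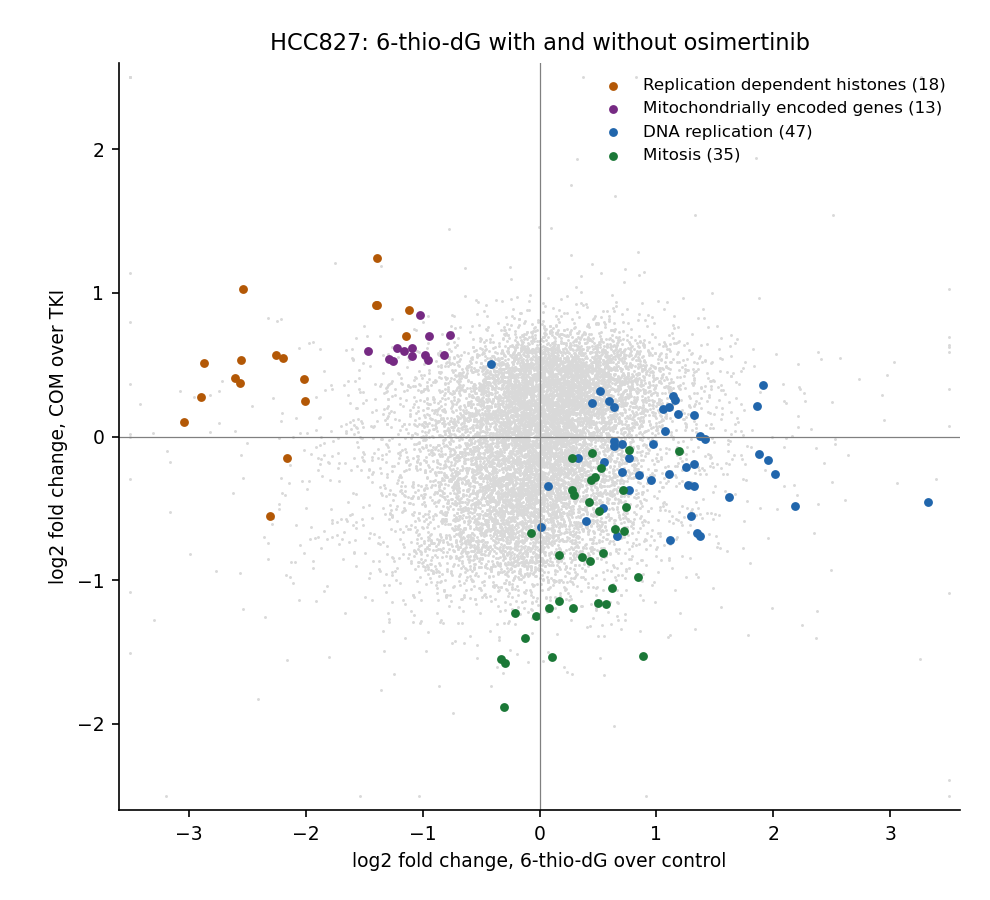
Deposited log2 fold change of COM over TKI (y axis) against that of 6-thio-dG over the arm read as control (x axis) in HCC827, 1 grey point per gene, with values beyond 2.5 and 3.5 drawn at the edges. Histone and mitochondrially encoded genes lie at the upper left, and replication and mitosis genes at the right and below.

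Ribosomal, stress and antigen genes also differed between the treatments. Ribosomal protein genes were higher in COM over TKI in 43 of 83, with 65 risen there and 0 risen and 10 fallen in THIO over control. Of 23 ATF4 genes 13 were higher and 1 lower in COM over TKI, with 13 fallen in THIO over control, and of 22 antigen presentation genes 12 were higher, with 13 fallen in THIO over control. HSP90AA1, a heat shock chaperone, fell by 0.50 ± 0.12 in COM over TKI and was at 2.03 ± 0.16 in THIO over control, and the difference of -2.54 ± 0.20 also passed. Of the 24 ERK output genes, 5 were higher and 5 lower, and DUSP6 was at -1.29 ± 0.24 in COM over TKI and at -0.85 ± 0.19 in THIO over control, a difference with an adjusted p of 0.319. In THIO over control 9 of the 24 fell and 2 rose, with a median of -0.31, so falls were not particular to the combination. There, 14 of 24 immediate early genes fell and 2 rose, and 8 of 15 EGFR family genes fell and 0 rose. NF-kB and cytokine genes fell in 17 of 23 and rose in 0 there, against 14.4% fallen and 14.8% risen over all genes. MUC5B fell in both, at -1.09 ± 0.13 in COM over TKI and -3.54 ± 0.17 in THIO over control, and the difference of 2.46 ± 0.21 passed.

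Fold changes of the combination were different in A375 melanoma cells under PLX4720. The difference between HCC827 and A375 of the fold changes of COM over TKI passed in 6673 of 11812 genes (56.5%), 3254 higher (27.5%) and 3419 lower (28.9%) in HCC827, and after GC adjustment in 5183 (44%), 2862 higher (24.3%) and 2321 lower (19.7%). A375 had 7153 genes called (60.5%), 3685 risen (31.2%) and 3468 fallen (29.3%). Of 2444 genes called in both lines 1097 had the same sign (44.9%), and of 473 after GC adjustment 319 did (67.4%). ERK output genes had medians of -0.53 in HCC827 and 0.071 in A375, where 8 rose and 7 fell, and single members split: EGR1 was at -0.65 ± 0.11 in HCC827 and -3.16 ± 0.16 in A375, and DUSP5 at -0.83 ± 0.19 in HCC827 and 1.79 ± 0.18 in A375. The EGFR ligand gene AREG was at -0.59 ± 0.17 in HCC827 and 5.25 ± 0.42 in A375. CCN2 was at -1.29 ± 0.19 in HCC827 and 0.87 ± 0.11 in A375. The 2 lines differ in tissue, driver mutation and targeted drug at once, and these cannot be told apart.

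p53, ATF4 and interferon genes differed between the lines in most members. Of 27 p53 targets, 5 rose and 5 fell in HCC827 and 21 rose and 2 fell in A375, and 20 were lower in HCC827 by the test of the difference; MDM2 was at -0.96 ± 0.23 in HCC827 and 1.66 ± 0.57 in A375. ATF4 genes were lower in HCC827 in 19 of 23, with 9 risen in HCC827 and 21 in A375, there with a median of 1.39. Interferon-stimulated genes were higher in HCC827 in 27 of 37, with 9 fallen in HCC827 and 32 in A375, there with a median of -1.80. All 13 mitochondrially encoded genes were higher in HCC827, with 0 risen and 10 fallen in A375. Mitosis genes fell in both lines, in 20 of 35 in HCC827 and 26 of 35 in A375. TOP2A was at -1.41 ± 0.21 in HCC827 and -2.96 ± 0.20 in A375. The GTP-forming subunit gene SUCLG2 fell as deposited in all 3 comparisons, at -0.65 ± 0.16 in COM over TKI and -1.12 ± 0.19 in THIO over control in HCC827 and at -0.96 ± 0.15 in A375, and its value in the combination was not called different from THIO over control (adjusted p 0.159) or from A375 (adjusted p 0.223) as deposited. After GC adjustment both differences of SUCLG2 were called, with COM over TKI higher than THIO over control by 0.89 (adjusted p 0.00458) and HCC827 higher than A375 by 1.14 (adjusted p 1.94e-06).

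**Figure D5:**
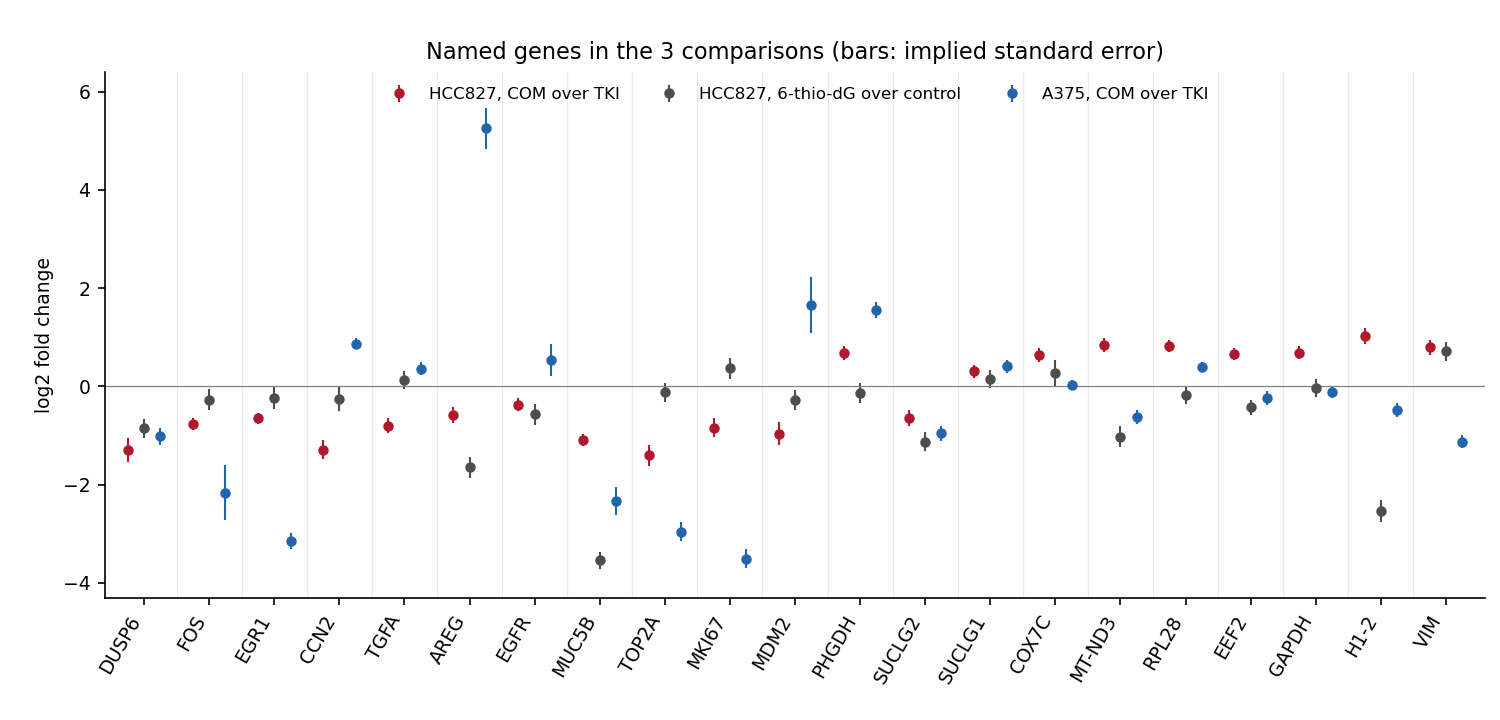
Log2 fold changes (y axis) of 21 named genes (x axis) in 3 comparisons of the authors' deposited table: COM over TKI in HCC827 (red), 6-thio-dG over the arm read as control in HCC827 (grey) and COM over TKI in A375 (blue), with the implied SE as bars. The red values lie between -1.41 for TOP2A and 1.03 for H1-2, a narrower range than the blue ones, which reach 5.25 for AREG.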

How the data were processed

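RNA sequencing was analysed from the authors' deposited table, which gives 11828 genes in 4 comparisons as log2 fold changes with raw and adjusted p-values, per the file headers. Per the submitters' processing notes, reads were checked with FastQC, trimmed with Trimmomatic and aligned to hg38 with STAR; their versions, the counter, the annotation and the test behind the fold changes were not named in any source used here. The table holds no value per library, so the sequencing depth is unknown. Precision was judged by the implied standard error, obtained by dividing each log2 fold change by the normal z that belongs to its p-value.

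Names were matched to GENCODE release 29 (11793 of 11828 genes, 99.7%), which gave GC content, length and span over merged exons. A lowess fit (fraction 0.3) gave the GC trend to subtract, and the residual was set against the implied standard error in a two-sided z test, adjusted by Benjamini-Hochberg over all genes. Adjustment for GC content, length and span used 5 rounds of backfitting. Scripts were checked on simulated fold changes that used the deposited standard errors. The difference from A375 leaves out 16 genes whose p-value was listed as 0 there. Alternatives were removal of the GC or of all 3 trends, an adjusted p of 0.01, a 2-fold minimum, new adjustment of p over the table, median centring, t in place of normal p-values and leaving out the least precise 25% of genes. Promoters were matched by symbol for 9581 genes. Python 3.11.15, pandas 2.3.3, NumPy 2.4.6, SciPy 1.17.1 and statsmodels 0.14.6 were used.

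The genes, the 45 lists (38 pathway and 7 cell type) and the tests were chosen with earlier results of these data known. Histone and a few other symbols in the lists were respelled, or dropped as aliases, after the table was read. A rule named 202 genes: 4 always (EGFR and the succinyl-CoA ligase genes), the 10 largest rises and falls as deposited, 8 each way with the GC trend removed, up to 4 members of lowest p-value from each list with at least 5 measured members, the 6 largest differences each way from either other comparison, and 6 genes called with opposite signs in HCC827; 16 more are said to be chosen after their values were seen. The values of a few named genes are not reported here.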

Additional observations from a re-analysis of the deposited data

Results flagged for a closer look

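Whole gene groups differed between 6-thio-dG on top of osimertinib and 6-thio-dG over control in HCC827, by the gene-wise test of the difference of log2 fold changes, adjusted over all genes. Lower in COM over TKI than in THIO over control were 27 of 35 mitosis genes, 35 of 47 DNA replication genes and 17 of 32 genes of homologous recombination. Higher were 13 of 13 mitochondrially encoded genes, 15 of 18 replication-dependent histones, 43 of 83 ribosomal protein genes, 13 of 23 ATF4 genes and 12 of 22 antigen presentation genes. Over all genes 11.4% were lower and 10.8% higher. After GC adjustment of both comparisons 22 mitosis, 30 replication and 13 homologous recombination genes were lower, against 7.72% of all genes, and 13 mitochondrially encoded, 13 histone (of 16 with a value), 38 ribosomal protein, 12 ATF4 and 13 antigen presentation genes were higher, against 9.61%.

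More groups differed between the lines. Lower in HCC827 than in A375 were 20 of 27 p53 targets, 19 of 23 ATF4 genes, 16 of 21 heat shock genes, 17 of 28 NRF2 and ferroptosis genes, 41 of 78 mitochondrial ribosomal protein genes, 23 of 32 ribosome biogenesis genes, 19 of 31 proteasome genes and 12 of 16 hypoxia genes. Higher were 27 of 37 interferon-stimulated genes, 19 of 22 antigen presentation genes, 13 of 13 mitochondrially encoded genes, 17 of 18 histones, 9 of 16 contractile genes and 7 of 7 mesenchymal markers. Over all genes 28.9% were lower and 27.5% higher. After GC adjustment the lower counts were 18 for p53 targets, 21 for ATF4, 14 for heat shock, 16 for NRF2 and ferroptosis, 34 for mitochondrial ribosomal protein, 22 for ribosome biogenesis, 13 for proteasome and 8 for hypoxia genes, against 19.7% of all genes. The higher counts were then 30 for interferon-stimulated, 16 for antigen presentation, 13 for mitochondrially encoded, 14 for histone (of 16), 5 for contractile genes and 6 for mesenchymal markers, against 24.3% of all genes. The adjusted count of contractile genes is near that share and is not a result about the list. Their median difference was 0.58 as deposited and 0.050 GC-adjusted.

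Single genes are given with the difference of log2 fold changes that passed the same test. Of named genes with ordinary identities, CCNE2, which encodes cyclin E2, differed by -3.78 between COM over TKI and THIO over control, VGLL3, a partner of TEAD factors, by -3.77 and NR4A2, an immediate early nuclear receptor, by -3.16. CDRT4 differed by -8.21 ± 2.30 there and by -12.6 ± 1.95 between HCC827 and A375. Between the lines PADI2, a deiminase of arginine, differed by 10.4, FAM20A, a pseudokinase of biomineralisation, by 9.998, NRTN, the ligand neurturin, by 9.30, CYP4F3, a fatty acid hydroxylase, by -11.8, ANKRD2, a muscle ankyrin protein, by -9.37 and PADI1, another deiminase, by -9.25.

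Readthrough and unnamed loci made up the rest. Between COM over TKI and THIO over control, PEDS1-UBE2V1 differed by 37.3, ISY1-RAB43 by 25.1, PDCD6-AHRR by 15.4, RPL36A-HNRNPH2 by 10.5, ENSG00000273259 by 5.97, ENSG00000249624 by 5.85, TMEM256-PLSCR3 by -4.80, ENSG00000144785 by -11.7 and ENSG00000285779 by -38.9. Between HCC827 and A375, PEDS1-UBE2V1 differed by 24.6, CORO7-PAM16 by 12.4, ENSG00000273259 by 12.4, ENSG00000188223 by -9.57 and ENSG00000285779 by -25.6. Counts behind these values are not in the table used here.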

How the results depend on the processing

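Counts of calls changed with several choices. Removing the GC trend gave 411 genes risen and 315 fallen in COM over TKI, and removing GC, length and span trends gave 283 and 237. An adjusted p of 0.01 gave 1224 and 1362, and a change of at least 2-fold 19 and 254. For the difference from THIO, GC, length and span removal gave 893 genes lower, an adjusted p of 0.01 gave 780 higher and 779 lower, and a 2-fold size 522 and 740. Reading the p-values as those of t tests gave 1690 higher and 2028 lower there, against 1282 and 1354 with the normal test. For the difference from A375 a 2-fold size gave 1991 higher and 2030 lower. The t reading gave 3772 and 4043 there, against 3254 and 3419 with the normal test. Of 212 named genes with a GC-adjusted value, 78 kept their direction and side of the threshold, 118 were no longer called, 5 became called and 11 changed sign. With GC removal the value was 0.070 for MLH3, 0.080 for MSH3, 0.073 for DLD, 0.014 for BNIP3L, 0.078 for INSIG2, -0.010 for MUC1, 0.095 for SNAI2, -0.21 for NAPSA, 0.20 for CCNE2, -0.040 for PADI2 and -0.081 for ANKRD2, each of opposite sign to the deposited one. With length and span also removed it was 0.11 for MLH3, 0.13 for MSH3, -0.053 for ITPA, 0.031 for DLD, 0.040 for BNIP3L, -0.35 for NAPSA, 0.11 for CCNE2, -0.12 for NRTN and -0.23 for ANKRD2. The cause of the trends was not tested. Adjusting p again over the table and median centring changed no call among 218 named genes, an adjusted p of 0.01 ended 14, a 2-fold minimum ended 147, and leaving out the least precise genes added 1 among 168.

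No paired analysis was possible because the table holds no values per library; leaving out single libraries and the replicate block were not run for the same reason. Depth is unknown, so what it limits cannot be stated beyond the implied standard errors.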

Other observations

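Contractile and actin-binding genes had a positive median in COM over TKI, 0.34 as deposited, with 8 of 16 risen and 1 fallen, but 0 were called after GC adjustment. Over all genes 17.3% rose and 17.9% fell as deposited, and 6.16% were called after GC adjustment. GC-adjusted counts of 0 or 1 in these lists are near that background and are not a result about them. ZYX, a focal adhesion protein, was at 0.72 ± 0.13 as deposited and 0.30 GC-adjusted (adjusted p 0.177), and MYL9, a myosin light chain, at 0.80 ± 0.17 and 0.46 (adjusted p 0.0769). Chromatin modifiers lay on the other side, with 12 of 35 fallen and 2 risen as deposited and 1 risen after adjustment; CHD1, a nucleosome remodeller, was at -0.91 ± 0.24 as deposited and -0.27 GC-adjusted (adjusted p 0.586). Among 15 kinesins and motor adaptors 3 rose and 6 fell as deposited and 0 were called GC-adjusted, and KIF5B, the main kinesin motor for cargo, was at -0.94 ± 0.16 as deposited and -0.36 GC-adjusted (adjusted p 0.194).

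Splicing factors split, with 8 of 42 risen and 11 fallen as deposited and 5 risen and 3 fallen after GC adjustment; SNRPD2, a core protein of spliceosomal particles, was at 0.67 ± 0.14 as deposited and 0.48 GC-adjusted (adjusted p 0.0182). Ribosome biogenesis genes rose in 12 of 32 and fell in 3 as deposited, with 3 risen and 1 fallen GC-adjusted, the last being WDR43, a processome protein, at -1.0 ± 0.16 as deposited and -0.50 GC-adjusted. Lysosomal genes rose in 7 of 27 and fell in 3 as deposited, with 2 risen and 1 fallen GC-adjusted, and endoplasmic reticulum chaperones rose in 1 of 22 and fell in 4, with 1 fallen GC-adjusted. Heat shock genes rose in 5 of 21 and fell in 2 as deposited, and HSPA1A, the inducible HSP70, was at 0.42 ± 0.14 in COM over TKI and at 2.97 ± 0.19 in THIO over control. Antigen presentation genes rose in 4 of 22 and fell in 1 as deposited, with 0 called GC-adjusted. Over all genes 17.3% rose and 17.9% fell as deposited, and 3.49% and 2.67% GC-adjusted. Counts near these shares, such as the rises of antigen presentation genes, are not a result about the lists. MUC5AC, a further airway mucin, had nearly the fold change of MUC5B but was not called, at -1.12 ± 0.50 as deposited (adjusted p 0.0676).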
